A study of Mus musculus with 8 samples.

Results

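Respiratory complex I was examined through the transcripts of 35 nuclear-encoded subunits, the genes of the Ndufa, Ndufb, Ndufc, Ndufs and Ndufv families in the deposited table of gastrocnemius gene expression. Members were taken by gene symbol, 1 row each, and all 35 were found among 38741 symbols. Of these symbols, 11118 had a mean of at least 1 FPKM (a level in which the fragments of a gene are divided by its transcript length and by the size of the library), and all 35 members were among them. The knockouts were 4 male mice (KO5 to KO8), homozygous for the Bcat2tm1.2Clyn allele and 10 to 11 weeks old, compared with 4 male wild-type mice (WT1 to WT4) aged 9 to 10 weeks. Both genotypes were on a C57BL6 background and chose freely between a chow and a diet without branched-chain amino acids. The knockouts lack BCATm, the mitochondrial aminotransferase that begins the breakdown of valine, leucine and isoleucine. The labels name no driver that would limit this to muscle. Knockouts weighed 15 to 24 g and wild-type mice 22 to 25 g, and the knockout columns could not be tied to single labelled mice.

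Complex I oxidises NADH from the TCA cycle, fatty acid oxidation and amino acid breakdown, passes the electrons over a flavin and a chain of iron-sulphur clusters to ubiquinone, and pumps protons across the inner mitochondrial membrane. Its catalytic core is shared with bacteria and sits in a matrix arm, which holds the redox centres, and in a membrane arm, which holds the proton pumps and is built around subunits encoded by mitochondrial DNA. Around the core lie accessory subunits, which are needed for assembly and stability. In muscle the complex is abundant because contraction depends on oxidative ATP supply.

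The gene families do not follow this division exactly. Ndufs1, Ndufs3, Ndufs7, Ndufs8, Ndufv1 and Ndufv2 are catalytic core subunits, 6 in all, whereas Ndufs4, Ndufs5, Ndufs6 and Ndufv3 are accessory despite their names. The Ndufs and Ndufv group below therefore holds 10 genes by name, and the Ndufa, Ndufb and Ndufc group 25 genes, all accessory. The 37 rows of the mitochondrial genome, which include the mitochondrially encoded subunits, were listed at 0 in every mouse and were not used.

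FPKM summed to between 720874 and 896084 per knockout library and between 690983 and 803325 per wild-type library. Depth relative to WT2, read from genes of low FPKM, ran from 0.547 to 1.21 in knockouts and from 0.437 to 1.23 in wild type. Bcat2 read 2.89, 5.26, 2.91 and 2.09 FPKM in KO5 to KO8, against 83.0, 42.7, 46.0 and 41.2 FPKM in WT1 to WT4 (log2 difference -3.65, SE 0.28, limma adjusted p = 0.00245), every knockout below every wild-type mouse. Genes of muscle identity were abundant in all libraries: Ckm, Mb, Des, Ttn and Neb together gave 14902.5 to 21199 FPKM in knockouts and 14775 to 18718 FPKM in wild type. Of the 6 adipocyte markers, all were detected in every mouse, and they summed to 1876 to 7449 FPKM in knockouts (highest in KO6) and to 1580 to 12947 FPKM in wild type (highest in WT1). The 5 skin keratins summed to 468 FPKM in KO6 and to at most 2.61 FPKM in the other knockouts and 2.197 FPKM in wild type, and 4 of them were listed at 0 in at least 1 mouse. The 8 slow fibre genes summed to 493 to 1722 FPKM in knockouts and 248 to 1305 FPKM in wild type, and the 8 fast fibre genes to 67164 to 105978 FPKM in knockouts (highest in KO5) and 70140.5 to 81061 FPKM in wild type. The 6 fibroblast and tendon genes summed to 385 to 691 FPKM in knockouts and 463 to 818 FPKM in wild type, and the 4 Schwann cell genes to 72.2 to 175 FPKM in knockouts and 47.9 to 90.3 FPKM in wild type. The 4 haemoglobin genes of blood summed to 557 to 2087 FPKM in knockouts and 852 to 1763 FPKM in wild type. At an unadjusted limma p under 0.05, 2 fibroblast and tendon genes, 1 fast fibre gene and 1 muscle identity gene were lower and 1 Schwann cell gene was higher in knockouts, and 0 genes of these lists passed the adjusted threshold. Their part in the results below was not tested, except that values without WT1 and KO6 are given, and in whole muscle fewer cells of a type and less RNA per cell cannot be told apart.

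Complex I transcripts went both ways between the genotypes, and none of the 35 passed the test over all genes. By limma on log2(FPKM + 1), 0 of 35 members had an adjusted p under 0.05, against 0.027% of all tested genes (3 genes, of which Bcat2 is one; 0.00899% higher and 0.018% lower). The lowest adjusted p of a member was 0.48. An unadjusted limma p under 0.05 was found for 10 members and for 10.3% of all tested genes. Knockout values were higher for 6 of these members and lower for 4, where 2.99% of all tested genes were higher and 7.33% lower. That split was 4 higher and 3 lower after median-ratio scaling and 1 higher and 7 lower after quantile scaling. It was 3 and 4 without WT1 and KO6, and 0 members were higher when KO5 or KO8 was left out. Shares over all tested genes at this threshold were taken for the main fit only, so these other counts have no background beside them.

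The difference was above 0 for 22 members and below 0 for 13, whereas 36.4% of all tested genes were above and 63.6% below 0. After median-ratio scaling 27 were above and 8 below 0, and after quantile scaling 16 were above and 19 below. Of all tested genes, 5595 lay above and 5523 below 0 with median-ratio scaling, and 4928 above and 6190 below with quantile scaling. The median of the members was 0.087 on the log2 scale, against -0.12 for all tested genes, so the members lay 0.21 above the median of all genes. The median of all genes moved to 0.003 with median-ratio scaling. The members' median relative to all genes then became 0.24, but it was -0.018 with quantile scaling, -0.013 with the trend on transcript length and GC content removed, and 0.11 without WT3.

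**Figure D1:**
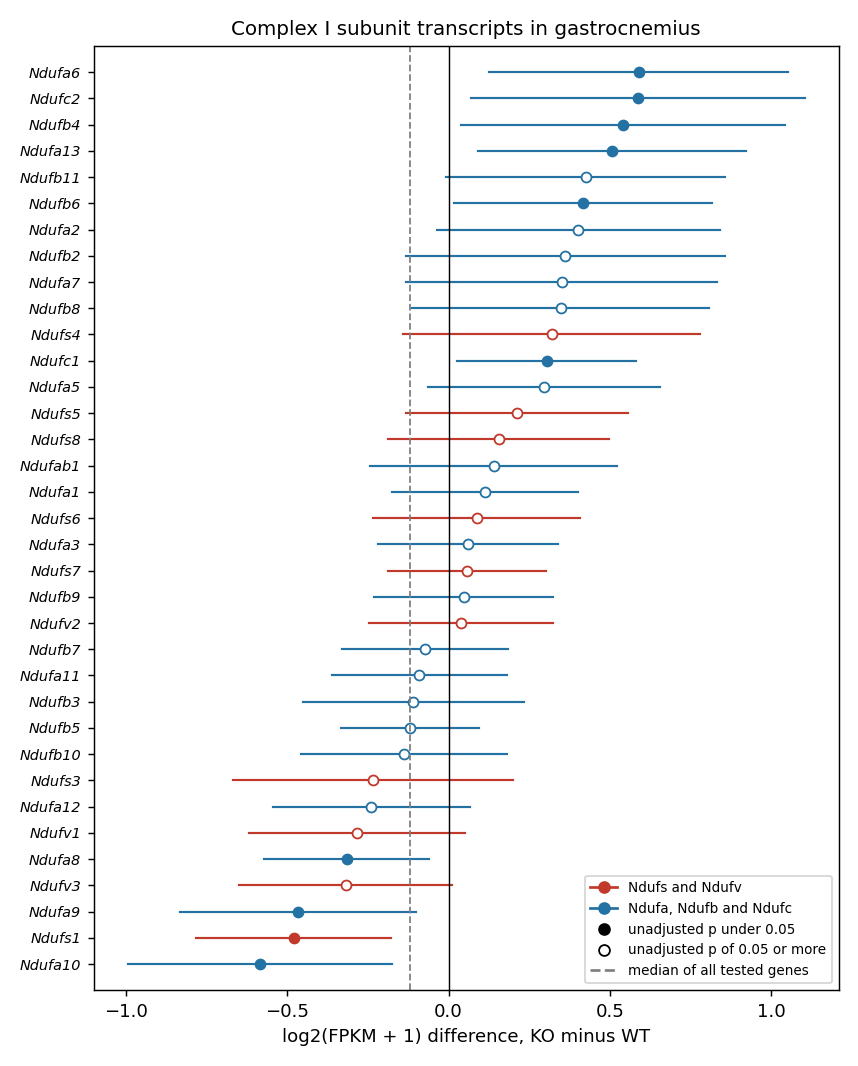
Difference between KO and WT (log2(FPKM + 1) scale, horizontal axis) for each of the 35 members, with 95% intervals from limma over 4 KO and 4 WT mice. Filled points have an unadjusted p under 0.05, colours give the family, and the dashed line is the median of all 11118 tested genes at -0.12. Differences run from -0.59 for Ndufa10 to 0.59 for Ndufa6.

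Levels spanned a wide range although the subunits are assembled in fixed proportion. Over the 8 mice the mean was highest for Ndufa6 at 1700 FPKM and lowest for Ndufa11 at 41.9 FPKM, with a median of 370 FPKM over the members. All tested genes had a median of 5.98 FPKM, so the shares over all tested genes given in this report are not matched for level. The median was 303 FPKM in the Ndufs and Ndufv group, 222 FPKM in its 6 catalytic members, and 575 FPKM in the Ndufa, Ndufb and Ndufc group. Ndufa6, Ndufb8, Ndufa5, Ndufb9 and Ndufb2 had the highest means, all above 1000 FPKM in each group. Ndufa11 (chromosome 17, 56717762 to 56724248) read 45.5, 41.4, 36.0 and 39.7 FPKM in KO5 to KO8, against 41.9, 44.5, 43.1 and 43.3 FPKM in WT1 to WT4. These groups overlapped (log2 difference -0.09, SE 0.12, limma adjusted p = 0.73), and 12.5% of the 50-base windows of its transcript also occur in other annotated genes. The spread between mice also varied among members, and the coefficient of variation ran from 3.78% to 22.4% in knockouts and from 1.34% to 27.5% in wild type, with Ndufb5 the least variable in both.

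Among the catalytic core subunits, Ndufs1 stood apart. Ndufs1, the largest subunit, which carries iron-sulphur clusters of the matrix arm (ENSMUSG00000025968, mm10 chromosome 1, 63143596 to 63176822, minus strand), read 112, 113, 117 and 96.7 FPKM in KO5 to KO8, against 149.6, 132, 173 and 160 FPKM in WT1 to WT4. Every knockout lay below every wild-type mouse. Its mean was 109.7 ± 8.96 FPKM in knockouts and 153.8 ± 17.5 FPKM in wild type (SD, n = 4 each), a ratio of 0.714. The log2 difference was -0.48 (SE 0.13, 95% interval -0.78 to -0.18, unadjusted limma p = 0.0061, adjusted p = 0.48), and the exact permutation p was 0.0286 (2-sided), the smallest that 4 against 4 mice allow. The unadjusted p stayed under 0.05 in all 20 alternatives, and the difference was -0.32 with median-ratio and -0.51 with quantile scaling. Ino80dos and Eef1b2 overlap 6.16% of its exon bases from the opposite strand.

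The other core subunits differed less. Ndufv1, which binds NADH and the flavin, read 148, 136, 136 and 116 FPKM in KO5 to KO8 and 158, 137, 196 and 166 FPKM in WT1 to WT4, with 3 knockouts below every wild-type mouse (log2 difference -0.28, SE 0.15, limma adjusted p = 0.49). Its iron-sulphur partner Ndufv2 had means of 602 ± 34.97 FPKM in knockouts and 589 ± 70.5 FPKM in wild type (SD, n = 4 each), a log2 difference of 0.038 with an interval of -0.25 to 0.32. Ndufs3, of the part of the matrix arm near the ubiquinone site, averaged 245 ± 55.0 FPKM in knockouts and 285 ± 40.2 FPKM in wild type (log2 difference -0.23, interval -0.67 to 0.20). Without KO8 the difference was -0.099, without WT3 -0.15, and without both -0.013. For this gene 39.7% of the 50-base windows are shared with other annotated genes, a processed pseudogene among them, so its values are uncertain. The iron-sulphur subunits Ndufs7 and Ndufs8, which carry electrons towards ubiquinone, had log2 differences of 0.058 (interval -0.19 to 0.30) and 0.16 (interval -0.19 to 0.50, and 0.063 without KO5). Ndufs7 averaged 459 ± 34.5 FPKM in knockouts and 440 ± 17.6 FPKM in wild type, and Ndufs8 190 ± 30.8 FPKM in knockouts and 169 ± 14.8 FPKM in wild type (SD, n = 4 each).

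The 4 accessory subunits of the Ndufs and Ndufv families were spread on both sides of 0. Ndufs4, whose loss in mice gives a model of Leigh syndrome, averaged 340 ± 49.8 FPKM in knockouts and 276 ± 62.1 FPKM in wild type (log2 difference 0.32, interval -0.14 to 0.78). Its wild-type spread came from WT3 at 183 FPKM, while WT1, WT2 and WT4 read 304 to 310 FPKM, and without WT3 the log2 difference was 0.13. Ndufs5 and Ndufs6 had log2 differences of 0.21 and 0.087, the first with 41.2% of its 50-base windows shared with a processed pseudogene. Ndufv3 averaged 267 ± 39.7 FPKM in knockouts and 331 ± 28.97 FPKM in wild type (log2 difference -0.32, interval -0.65 to 0.012).

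In the Ndufa, Ndufb and Ndufc group, 3 of 25 members had lower knockout values at an unadjusted p under 0.05, beside 7.33% of all tested genes. Ndufa10, a membrane arm subunit related to nucleoside kinases (ENSMUSG00000026260, chromosome 1, 92439010 to 92473860, minus strand), read 63.7, 62.9, 65.1 and 48.9 FPKM in KO5 to KO8, against 87.5, 69.7, 115 and 94.1 FPKM in WT1 to WT4. All 4 knockouts lay under the lowest wild-type mouse, WT2. The mean was 60.1 ± 7.53 FPKM in knockouts and 91.6 ± 18.8 FPKM in wild type (SD, n = 4 each), with a log2 difference of -0.59 (SE 0.18, unadjusted limma p = 0.0104, adjusted p = 0.48, exact permutation p = 0.0286). Ndufa9, a relative of short-chain dehydrogenases at the joint of the arms (chromosome 6, 126821863 to 126849144), read 134, 135, 125 and 100.3 FPKM in KO5 to KO8 and 166, 141, 205 and 175 FPKM in WT1 to WT4. The groups did not overlap, though KO6 and WT2 lay close (log2 difference -0.47, SE 0.16, unadjusted limma p = 0.018, adjusted p = 0.48, exact permutation p = 0.0286). Ndufa8, a cysteine-rich subunit facing the intermembrane space (chromosome 2, 36036326 to 36049406), read 163, 148, 147 and 137 FPKM in KO5 to KO8 and 187, 174, 195 and 184 FPKM in WT1 to WT4. Again every knockout was lower (log2 difference -0.32, SE 0.11, unadjusted limma p = 0.0214, adjusted p = 0.48, exact permutation p = 0.0286). Ndufa10 and Ndufa9 kept an unadjusted p under 0.05 in all 20 alternatives, and Ndufa8 in 19.

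Higher knockout values at an unadjusted p under 0.05 were found for 6 of these 25 members and for 0 of the 10 Ndufs and Ndufv members, beside 2.99% of all tested genes, and the difference between the groups was not tested. Ndufa6, a matrix arm subunit of the LYR family that binds the mitochondrial acyl carrier protein (ENSMUSG00000022450, chromosome 15, 82350139 to 82354291, minus strand), read 2295, 1955, 1729 and 2124 FPKM in KO5 to KO8, against 1560, 1518, 876 and 1545 FPKM in WT1 to WT4. Every knockout lay above every wild-type mouse, and WT3 lay far below its group. The means were 2026 ± 242 FPKM in knockouts and 1375 ± 333 FPKM in wild type (SD, n = 4 each), with a log2 difference of 0.59 (SE 0.20, unadjusted limma p = 0.0184, adjusted p = 0.48, exact permutation p = 0.0286). Without WT3 the log2 difference was 0.39. Ndufc2, a membrane arm subunit (chromosome 7, 97400003 to 97407802), read 1233, 1036, 907 and 1175 FPKM in KO5 to KO8 and 876, 787, 449 and 864 FPKM in WT1 to WT4. The groups did not overlap (log2 difference 0.59, SE 0.23, limma adjusted p = 0.48, exact permutation p = 0.0286), and without WT3 the value was 0.36. Ndufc1, its partner by name and the shortest transcript of the set (chromosome 3, 51404677 to 51408988), read 775, 736, 728 and 915 FPKM in KO5 to KO8 and 696, 662, 577 and 615 FPKM in WT1 to WT4. Here too all knockouts were above all wild-type mice (log2 difference 0.30, SE 0.12, limma adjusted p = 0.48).

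For the remaining members with higher knockout values the groups overlapped, and each shares sequence with other genes. Ndufa13, also known as GRIM-19 (chromosome 8, 69894188 to 69902558), read 768, 602, 493 and 647 FPKM in KO5 to KO8 and 469, 499, 333 and 464 FPKM in WT1 to WT4. KO7 lay within the wild-type range (log2 difference 0.51, SE 0.18, limma adjusted p = 0.48, exact permutation p = 0.0571), and 30.0% of its exon bases are overlapped by Tssk6 on the opposite strand. Ndufb4, a membrane arm subunit (chromosome 16, 37647170 to 37654453), read 352, 302, 338 and 397 FPKM in KO5 to KO8 and 247, 304, 152 and 278 FPKM in WT1 to WT4. KO6 lay just under WT2 (log2 difference 0.54, SE 0.22, limma adjusted p = 0.48, and 0.33 on the log2 scale without WT3), and 37.0% of the 50-base windows are shared with processed pseudogenes. Ndufb6, another membrane arm subunit (chromosome 4, 40270591 to 40279421), read 617, 600, 445 and 586 FPKM in KO5 to KO8 and 512, 390, 329 and 461 FPKM in WT1 to WT4. KO7 again lay within the wild-type range (log2 difference 0.42, SE 0.18, limma adjusted p = 0.48, exact permutation p = 0.0857), and Smim27 overlaps 39.0% of the exon bases from the opposite strand. The library kit does not mark strand as far as the sources used here tell, so reads of such overlapping genes cannot be told apart.

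**Figure D2:**
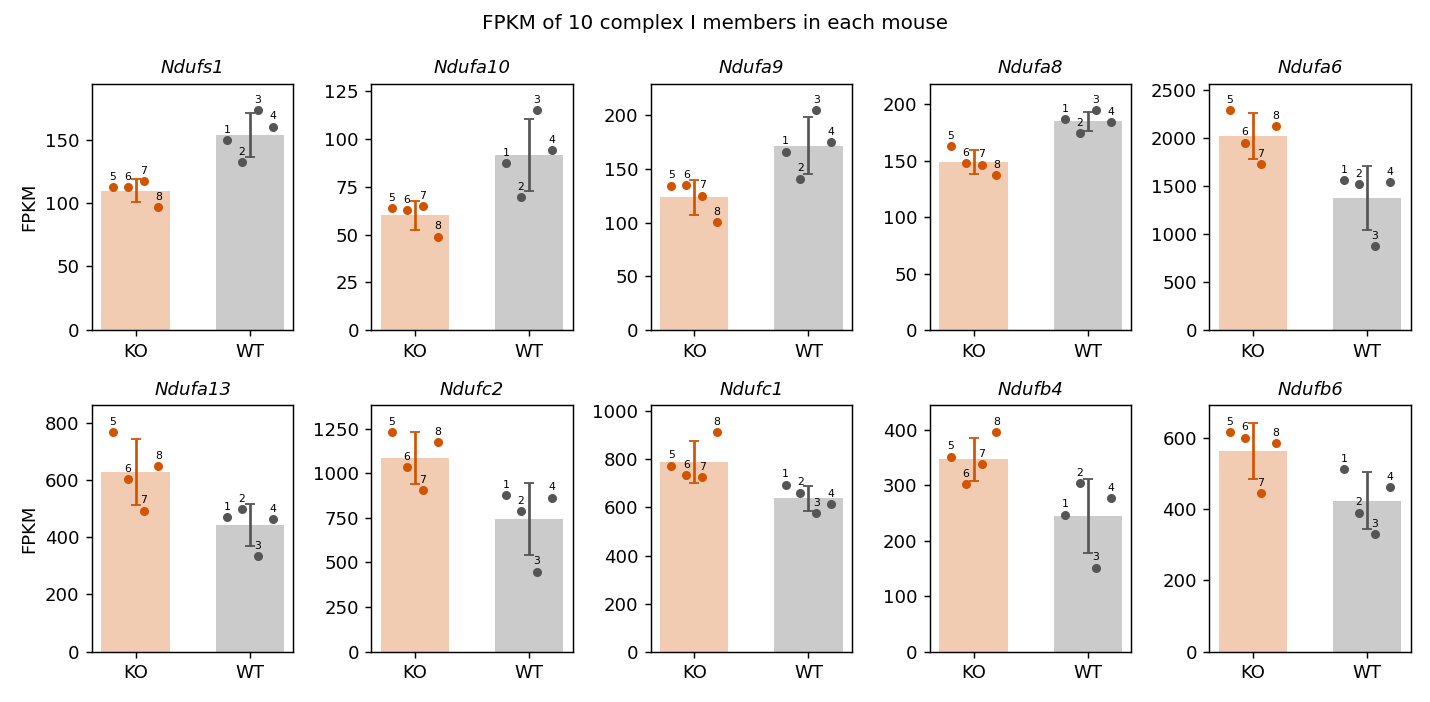
FPKM (vertical axes, each from 0) of the 10 members with an unadjusted p under 0.05, in KO (left) and WT (right) mice. Points are single mice with their column number, bars are means and error bars SD (n = 4 each). Of the panels with higher WT values, Ndufs1, Ndufa10, Ndufa9 and Ndufa8 show no overlap, and WT3 is the lowest mouse in all 6 panels with higher KO values.

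Promoter windows of 300 bases (250 before to 50 after the start, GRCm38.p6, from RefSeq) were found for 32 of the 35 members. The windows are shown for the members with the highest (Ndufa6, Ndufc2) and the lowest (Ndufa10, Ndufa9) differences that have one, since these transcripts belong to 1 complex and went opposite ways. Capitals mark matches to 4 short motifs of factors known to act on nuclear genes of respiration, searched on both strands: GCGCATGC for NRF1, CCGGAAG for ETS factors such as GABP, AAGGTCA for ERR and other nuclear receptors, and AAGATGG for YY1.
Ndufa6 (chr15:82354242-82354541, minus strand): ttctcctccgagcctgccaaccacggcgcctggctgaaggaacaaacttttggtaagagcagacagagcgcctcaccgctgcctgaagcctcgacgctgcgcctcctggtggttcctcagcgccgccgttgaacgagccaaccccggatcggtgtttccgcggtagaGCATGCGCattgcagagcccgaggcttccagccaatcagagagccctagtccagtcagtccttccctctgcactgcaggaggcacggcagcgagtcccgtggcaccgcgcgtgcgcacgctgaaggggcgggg
Ndufc2 (chr7:97399753-97400052, plus strand): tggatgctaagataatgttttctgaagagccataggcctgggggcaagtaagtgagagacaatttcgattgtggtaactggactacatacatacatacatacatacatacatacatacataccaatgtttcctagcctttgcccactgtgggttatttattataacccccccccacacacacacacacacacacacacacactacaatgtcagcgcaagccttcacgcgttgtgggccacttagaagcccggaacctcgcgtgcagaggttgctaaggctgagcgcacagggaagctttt
Ndufa10 (chr1:92473709-92474008, minus strand): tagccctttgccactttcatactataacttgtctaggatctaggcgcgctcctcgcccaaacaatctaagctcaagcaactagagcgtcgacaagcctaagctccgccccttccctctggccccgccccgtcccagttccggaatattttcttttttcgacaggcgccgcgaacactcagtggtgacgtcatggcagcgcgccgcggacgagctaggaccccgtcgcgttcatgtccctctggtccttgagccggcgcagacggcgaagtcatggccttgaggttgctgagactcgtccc
Ndufa9 (chr6:126849095-126849394, minus strand): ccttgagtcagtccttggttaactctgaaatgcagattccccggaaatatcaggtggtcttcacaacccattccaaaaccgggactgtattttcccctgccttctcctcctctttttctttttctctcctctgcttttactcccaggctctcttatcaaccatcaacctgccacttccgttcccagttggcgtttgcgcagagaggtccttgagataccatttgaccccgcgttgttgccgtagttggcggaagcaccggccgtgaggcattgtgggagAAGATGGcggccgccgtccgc
The NRF1 letters begin at base 168 of the Ndufa6 window, 83 bases before the start, and the YY1 letters at base 280 of the Ndufa9 window, while the windows of Ndufc2 and Ndufa10 hold none of the 4 motifs. Over the 34 windows of the members, the NRF1 letters were in 3 (8.82%, against 2.71% of all 32851 windows) and the ETS letters in 4 (11.8%, against 8.86%). The ERR letters were in 3 (8.82%, against 4.72%) and the YY1 letters in 7 (20.6%, against 6.34%), and no matches of different motifs overlapped. The NRF1 letters occurred for Ndufa6, Ndufa8 and Ndufa11, whose differences were 0.59, -0.32 and -0.09. These matches are descriptions of letters and not binding sites.

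Groups did not overlap for 8 of 35 members and for 6.75% of all tested genes. Of these members, 3 had higher knockout values (Ndufa6, Ndufc1 and Ndufc2), where 2.08% of all tested genes did so. The other 5 had lower knockout values (Ndufs1, Ndufa8, Ndufa9, Ndufa10 and Ndufb5), where 4.68% of all tested genes did so. These shares are not matched for level, with medians of 370 FPKM in the members and 5.98 FPKM in all tested genes. Ndufb5, a membrane arm subunit, had the tightest values, at 680, 683, 731 and 675 FPKM in KO5 to KO8 and 737, 758, 755 and 757 FPKM in WT1 to WT4. All knockouts were lower, but by little (log2 difference -0.12, SE 0.09, interval -0.33 to 0.095), and the difference was 0.037 after median-ratio scaling.

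The other 15 Ndufa, Ndufb and Ndufc members did not reach the unadjusted threshold. Higher knockout means at log2 differences of 0.30 to 0.42 were seen for Ndufa5, Ndufa7 and Ndufa2 of the matrix arm and for Ndufb2, Ndufb8 and Ndufb11 of the membrane arm. The limma adjusted p ran from 0.48 to 0.51 over these 6. Without WT3 the difference was 0.15 for Ndufa5, 0.14 for Ndufa7, 0.23 for Ndufa2, 0.17 for Ndufb2, 0.17 for Ndufb8 and 0.25 for Ndufb11. Ndufb11, with the largest difference of them, averaged 988 ± 129 FPKM in knockouts and 747 ± 165 FPKM in wild type (SD, n = 4 each). Ndufb8 averaged 1882 ± 256 FPKM in knockouts and 1508 ± 383 FPKM in wild type, and Ndufb2 1402 ± 240 FPKM in knockouts and 1107 ± 277 FPKM in wild type. Ndufa12, a matrix arm subunit, averaged 206 ± 28.7 FPKM in knockouts and 242 ± 15.1 FPKM in wild type (log2 difference -0.24, interval -0.54 to 0.07). Differences between -0.14 and 0.14 were measured for Ndufa1, Ndufa3, Ndufa11, Ndufab1, Ndufb3, Ndufb7, Ndufb9 and Ndufb10. Of these, Ndufab1 is the acyl carrier protein that the LYR subunits hold, at 312 ± 53.3 FPKM in knockouts and 282 ± 44.0 FPKM in wild type. Ndufb9 is the LYR subunit of the membrane arm, at 1303 ± 59.2 FPKM in knockouts and 1268 ± 160 FPKM in wild type. The 95% intervals of these 8 lie between -0.46 and 0.52.

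The rule of the gene names was then applied, with the Ndufs and Ndufv group set against the Ndufa, Ndufb and Ndufc group. The median log2 difference was 0.048 over the 10 Ndufs and Ndufv members and 0.14 over the 25 Ndufa, Ndufb and Ndufc members, a gap of -0.093. Above the all-gene median lay 6 of 10 and 19 of 25 members. The gap was read in each mouse as the difference of the median deviations from the mean of the 8 mice, at -0.041, -0.031, -0.12 and -0.20 in KO5 to KO8 and 0.017, -0.024, 0.16 and 0.037 in WT1 to WT4. Every knockout lay below every wild-type mouse, though KO6 and WT2 nearly met. The mean of these gaps was -0.098 ± 0.079 in knockouts and 0.049 ± 0.081 in wild type (SD, n = 4 each), a difference of -0.15. The gap between the medians was negative in all 22 alternatives, from -0.24 to -0.056, a count that includes the other groupings of members given next. By gene names alone it ran from -0.24 (without WT1 and KO6) to -0.067 (without WT3). With the 6 catalytic core subunits against the 29 other members it was -0.24, the core having 3 members above and 3 below 0. Between the 15 matrix arm and 19 membrane arm members (Ndufab1 belongs to both arms and was left out) the gap was -0.056.

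By family the median log2 difference was 0.11 for the 13 Ndufa and Ndufab1 genes, 0.20 for the 10 Ndufb genes, 0.45 for the 2 Ndufc genes, 0.087 for the 7 Ndufs genes and -0.28 for the 3 Ndufv genes. With quantile scaling the Ndufa median was -0.058 and the Ndufs median -0.062, so their direction was turned, and the Ndufb median was 0.029. The Ndufc median stayed above 0 (0.60 with median-ratio and 0.24 with quantile scaling) and the Ndufv median below 0 (-0.13 with median-ratio and -0.32 with quantile scaling).

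WT3 and KO8 lay at the ends of the range for many members. WT3 had the lowest value of all 8 mice for 21 of 35 members, although it was the lowest for 13.0% of all tested genes. KO8 had the highest value for 10 members and the lowest for another 10, although it was the highest for 3.47% and the lowest for 50.5% of all tested genes. Ndufa2, Ndufa7, Ndufab1, Ndufb2, Ndufb4, Ndufb8, Ndufb11, Ndufc1, Ndufs4 and Ndufv2 were highest in KO8 and lowest in WT3, an order found for 1.55% of all tested genes. The reverse order, lowest in KO8 and highest in WT3, was found for Ndufa8, Ndufa9, Ndufa10, Ndufa12, Ndufs1, Ndufs3, Ndufv1 and Ndufv3, and for 26.1% of all tested genes. The median deviation of all tested genes was -0.35 in KO8, the lowest of the mice, and 0.16 in WT3, the highest. Relative to it, the members' median was 0.15, -0.084, -0.014 and 0.39 in KO5 to KO8 and -0.058, 0.044, -0.45 and 0.066 in WT1 to WT4. Without WT3 and KO8 the members lay 0.032 above all genes, and the unadjusted threshold was passed by 1 member with higher and 4 with lower knockout values. The share of all tested genes past that threshold was not taken in this fit.

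**Figure D3:**
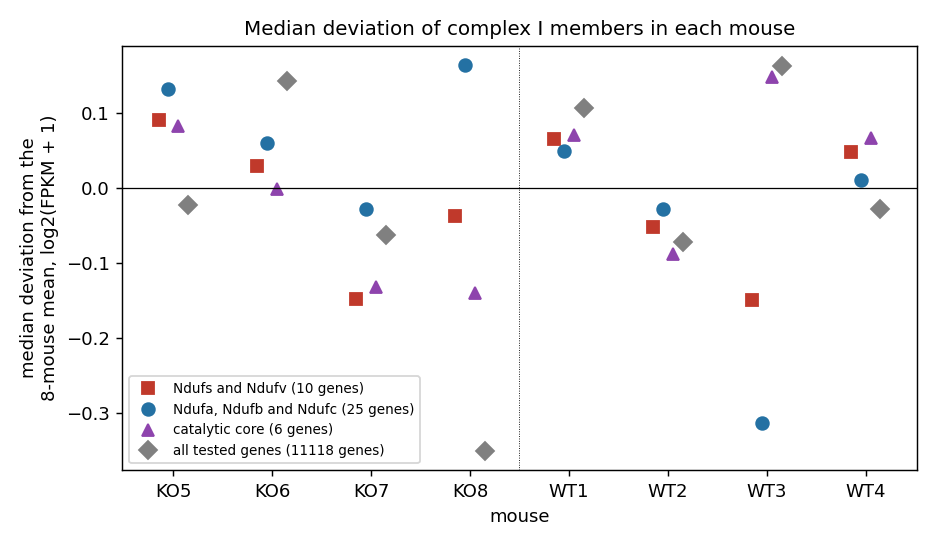
Median deviation from the 8-mouse mean (log2(FPKM + 1) scale, vertical axis) in each KO (left) and WT (right) mouse, for the Ndufs and Ndufv group, the Ndufa, Ndufb and Ndufc group, the 6 catalytic core subunits and all tested genes. In KO8 the Ndufa, Ndufb and Ndufc group is high (0.16) while all genes are low (-0.35), and in WT3 the order is turned round (-0.31 and 0.16).

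Transcript length went with the difference between genotypes. Across the 35 members the log2 difference had a Spearman rho of -0.45 with transcript length and -0.59 with coding length, given as a description, since the members share the same 8 libraries. Over 11024 tested genes with an annotated length the rho was -0.29. The 23 members under 1000 bases, a division chosen after the values were seen, had a median of 0.21 with 18 above and 5 below 0, beside 0.14 over all 1755 tested genes of that length. The 12 members of 1000 bases or more had a median of -0.24 with 4 above and 8 below 0, beside -0.14 over 9269 genes. By these medians, most tested genes under 1000 bases also lay above 0, and most of 1000 bases or more below 0. Under 1000 bases the 4 Ndufs and Ndufv members had a median of 0.12 and the 19 others 0.30, and from 1000 bases on the 6 Ndufs and Ndufv members had -0.26 and the 6 others -0.18. Against this order stood, for example, Ndufa13 at 1251 bases and Ndufs4 at 1698 bases, with differences of 0.51 and 0.32, and Ndufa8 at 861 bases, with -0.32.

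The relation to length also differed between mice. Over all genes, the rho between a mouse's deviation and length was -0.082, -0.091, 0.12 and -0.23 in KO5 to KO8 and -0.019, 0.067, 0.39 and 0.26 in WT1 to WT4. After the trend on length and GC content was removed in each mouse, rho over all genes was -0.017, and over the members it was still -0.38 with transcript length and -0.53 with coding length. The members' median was then -0.032, and the unadjusted threshold was passed by 2 members with higher and 5 with lower knockout values. All genes then had a median of -0.020, and their share past the threshold was not taken. Ndufs1, Ndufa10 and Ndufa9 had differences of -0.41, -0.48 and -0.49 in that fit, and Ndufa6 and Ndufc2 of 0.48 and 0.47.

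**Figure D4:**
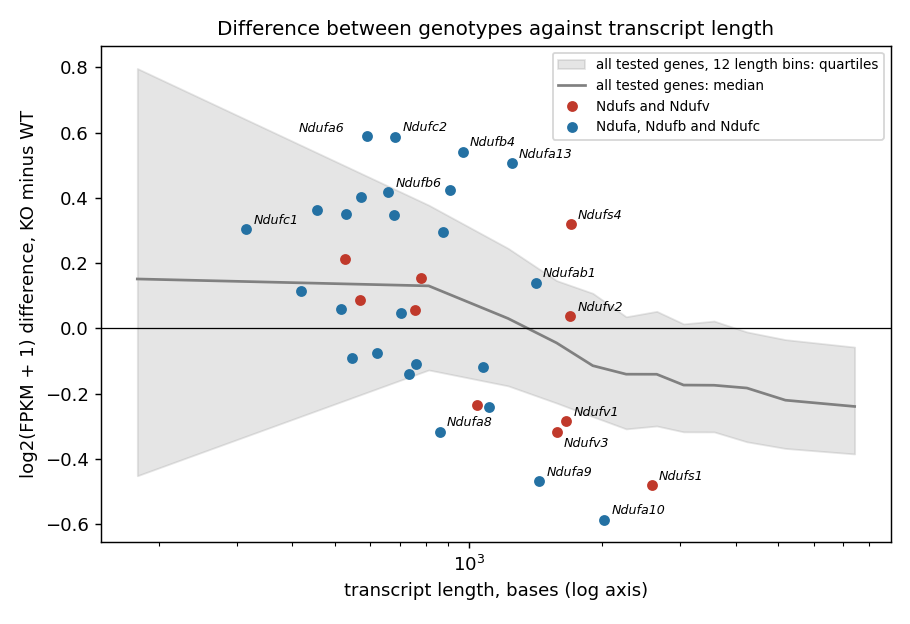
Difference between KO and WT (log2(FPKM + 1) scale, vertical axis) against transcript length in bases (log axis). Points are the 35 members, the grey line and band are the median and quartiles of all tested genes in 12 bins of length. The medians of all genes fall with length, and Ndufs1, Ndufs3, Ndufv1, Ndufv3, Ndufa8, Ndufa9, Ndufa10 and Ndufa12 lie below the band, while Ndufa6, Ndufc2, Ndufb4, Ndufb11, Ndufa13 and Ndufs4 lie above it.

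Ratios of members within a mouse do not depend on a single factor per library, such as median-ratio scaling, but quantile scaling can change them. They also keep any trend on transcript length that differs between mice. The pairs were chosen after their values were seen and carry no test. The ratio of Ndufa6 to Ndufs1 FPKM was 20.4, 17.4, 14.8 and 22.0 in KO5 to KO8 and 10.4, 11.5, 5.06 and 9.64 in WT1 to WT4. Both subunits belong to the matrix arm, and the genotypes did not overlap. That separation had to follow from the single genes, since every knockout was higher for Ndufa6 and lower for Ndufs1. Within the catalytic core, the ratio of Ndufs7 to Ndufs1 was 4.45, 3.90, 3.61 and 4.88 in KO5 to KO8 and 3.08, 3.23, 2.45 and 2.80 in WT1 to WT4, again without overlap. Within the membrane arm, Ndufc2 to Ndufa10 stood at 19.4, 16.5, 14.0 and 24.0 in KO5 to KO8 and 10.01, 11.3, 3.89 and 9.18 in WT1 to WT4. This separation too had to follow, since every knockout was higher for Ndufc2 and lower for Ndufa10. In each pair the first transcript is the shorter. Ndufa6 has 590 and Ndufs7 758 bases against 2590 for Ndufs1, and Ndufc2 has 683 bases against 2020 for Ndufa10. The part of length in these ratios was not tested.

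**Figure D5:**
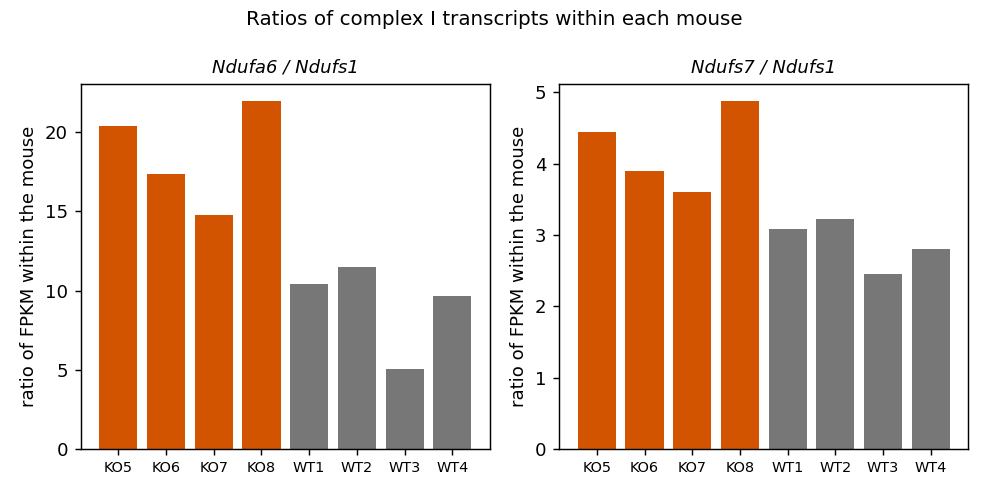
Ratio of FPKM within each mouse (vertical axes, from 0) for Ndufa6 over Ndufs1 (left) and Ndufs7 over Ndufs1 (right), KO mice in orange and WT mice in grey. The lowest KO ratios, 14.8 and 3.61 in KO7, are above the highest WT ratios, 11.5 and 3.23 in WT2. For Ndufa6 over Ndufs1 this had to follow from the single genes, each without overlap and in opposite directions.

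The authors' deposited table marks genes for 2 thresholds of their own p-value, by a test not given in the sources used here. Of 35 members, 27 carry in the authors' deposited table the mark for 0.05 and 23 the mark for 0.001, beside 20.2% and 10.8% of the tested genes. In the authors' deposited table the 27 marked members comprise 15 with higher and 12 with lower knockout values, and limma gave 10 of them an unadjusted p below 0.05. Ndufb9 is marked at 0.05 in the authors' deposited table, with knockouts at 1297, 1371, 1228 and 1316 FPKM and wild type at 1345, 1377, 1031 and 1319 FPKM, where limma gave an adjusted p of 0.87. Ndufa1, Ndufa3, Ndufa11, Ndufab1, Ndufs6, Ndufs7, Ndufs8 and Ndufv2 carry no mark in the authors' deposited table.

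Assembly factors, which build the complex without staying in it, were examined beside the subunits. Of 18 listed, 16 were in the table and tested, and 0 passed the limma threshold over all genes. At an unadjusted p under 0.05, 0 were higher and 3 were lower in knockouts, where 2.99% of all tested genes were higher and 7.33% lower. Acad9, an acyl-CoA dehydrogenase relative that acts with Ecsit in building the membrane arm, read 20.3, 21.6, 21.2 and 11.6 FPKM in KO5 to KO8 and 33.1, 25.9, 29.9 and 25.9 FPKM in WT1 to WT4. All knockouts were lower (log2 difference -0.63, SE 0.21, limma adjusted p = 0.48), and KO8 was far below the other knockouts. Ecsit read 31.0, 31.9, 32.2 and 23.1 FPKM in KO5 to KO8 and 36.1, 36.2, 49.1 and 34.9 FPKM in WT1 to WT4, and Foxred1, an oxidoreductase-like factor, averaged 6.65 ± 0.841 FPKM in knockouts and 10.6 ± 3.31 FPKM in wild type (SD, n = 4 each). Their log2 differences were -0.39 and -0.57 (limma adjusted p = 0.48 each). The median over the 16 factors was -0.047, with 7 above and 9 below 0, and it was 0.085 with median-ratio and 0.043 with quantile scaling.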

How the data were processed

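mRNA libraries (TruSeq RNA kit v2, RIN above 7) of gastrocnemius from 4 knockout and 4 wild-type mice, biological replicates per the series' design text, were read from one end for 50 cycles. Per the labels' protocols, the authors aligned reads to mm10 with TopHat 2.0.9 and turned uniquely mapped reads into FPKM with Cufflinks 2.0.2; the submitters' processing notes name Cufflinks 2.2.1. Sources used here give neither annotation nor strand setting. Since FPKM hold no read totals, no counting interval is given, and the spread among mice sets the precision.

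The row with the highest mean was kept per symbol. Genes with a mean of at least 1 FPKM were tested with limma-trend 3.58.1 (R 4.3.3) on log2(FPKM + 1), genotype as the only term, knockout minus wild type, 2-sided, Benjamini-Hochberg adjustment over all 11118 genes, threshold 0.05. This scale understates the change of low genes. Exact permutation tests used the 70 labellings of the mice. Members, lists and tests were chosen with earlier results of these data known. Members with an unadjusted p under 0.05 are given mouse by mouse, as are the highest and lowest by level. Ndufb5, Ndufv1, Ndufb9 and the ratios were chosen after their values were seen.

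Lengths, GC content, overlaps and shared 50-base windows came from GENCODE M21 (the shortest principal transcript), which held all 35 members; 24 had the annotated start once 1 was added to the deposited one, and positions are given from 1. Relative depth was the inverse of the mode of FPKM ratios to WT2, over genes above 0 and under 0.3 FPKM in both. The other deposited columns, the authors' mean FPKM, standard errors and flags of 0 or 1 (other than those named as the authors'), were not used. Alternatives were other pseudocounts, filters, scalings, weights, summed rows, a loess trend on length and GC removed (span 0.5), mice left out, and, added after seeing the data, WT3 and KO8 left out together. The code was tested on simulated data. Tables and plots were made in Python 3.11.15 (matplotlib 3.10.9, pandas 2.3.3, scipy 1.17.1).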

Additional observations from a re-analysis of the deposited data

Results flagged for a closer look

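Values that stood apart within their group of 4 mice, by the gap to the nearest mouse against the range of the group (above Dixon's 95% critical value), numbered 13 in 84 groups checked, and chance flags about 1 in 20 groups. The groups share the same libraries, so their flags are not independent. No share of flagged groups over all tested genes is given beside this count. Among members, WT3 was the mouse that stood low for Ndufa6 (876 FPKM, the other wild-type mice 1518 to 1560), Ndufb9 (1031 FPKM, the others 1319 to 1377), Ndufs4 (183 FPKM, the others 304 to 310) and Ndufv2 (484 FPKM, the others 610.1 to 632). KO7 stood low for Ndufa7 (569 FPKM, the other knockouts 653 to 662) and high for Ndufb5 (731 FPKM, the others 675 to 683). KO8 stood low for Ndufa10 (48.9 FPKM, the others 62.9 to 65.1), and WT1 low for Ndufb5 (737 FPKM, the others 755 to 758).

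Acad9, Foxred1 and Ecsit are the 3 assembly factors lower in knockouts at an unadjusted limma p under 0.05. KO8 stood low for Acad9 (11.6 FPKM), Foxred1 (5.404 FPKM) and Ecsit (23.1 FPKM), and WT3 stood high for Ecsit (49.1 FPKM). The 84 groups are too few to hold all 16 tested factors in both genotypes beside the 35 members. WT1 stood high for Bcat2 (83.0 FPKM, the other wild-type mice 41.2 to 46.0). The causes were not tested.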

How the results depend on the processing

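No paired analysis was possible because the knockout columns carry the numbers 5 to 8, which match no wild-type number. The count of 0 members past the adjusted threshold held in all 20 alternatives (lowest limma adjusted p 0.377), with unadjusted counts between 0 and 8 higher and 3 and 7 lower. Genes called over the whole table numbered 4 to 9 with a mouse left out and 11 without WT1 and KO6. Bcat2 kept its direction (-3.85 to -3.42 with a mouse left out). Without WT3 and KO8 it was -3.56 with a limma adjusted p of 0.187 (from 0.000276 to 0.0415 in the other alternatives). The fit without WT1 and KO6 held as few mice and gave Bcat2 a limma adjusted p of 0.000979. The reason for this difference was not tested. Members higher at an unadjusted p under 0.05 numbered 1 with quantile scaling, 2 with the length and GC trend removed, 3 without WT1 and KO6, 1 without WT3 and KO8, and 0 to 8 with a mouse left out, and those lower 7 with quantile scaling. Shares over all tested genes at this threshold were not taken for the alternatives. The members' median relative to all genes ran from 0.11 to 0.27 with a mouse left out. The gap between Ndufs and Ndufv and the other members was -0.20 with quantile scaling, -0.24 without WT1 and KO6, and -0.18 to -0.067 with a mouse left out. With the catalytic core set against all other members instead, the gap was -0.24. Of the 35 members, 23 kept their sign in all 20 alternatives, among them the 10 given mouse by mouse for their p. Changed signs, all of small differences, were as follows. With median-ratio scaling Ndufa11, Ndufb3, Ndufb5, Ndufb7 and Ndufb10 became 0.062, 0.046, 0.037, 0.082 and 0.017. With quantile scaling Ndufa1, Ndufa3, Ndufb9, Ndufs6, Ndufs7 and Ndufv2 became -0.061, -0.15, -0.11, -0.062, -0.17 and -0.17, and with the length and GC trend removed -0.0074, -0.060, -0.058, -0.032, -0.042 and -0.076. With array weights Ndufb9 and Ndufv2 became -0.021 and -0.053. Without WT3 and KO8, Ndufab1, Ndufb9 and Ndufv2 became -0.047, -0.054 and -0.084, and without WT1 and KO6 Ndufa3 became -0.0056. With a mouse left out, Ndufa3 ran from -0.017 to 0.13, Ndufb9 from -0.049 to 0.090 and Ndufv2 from -0.054 to 0.076. The cause was not tested.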
